A study of Mus musculus with 9 samples.

Results

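De novo lipogenesis is the making of fatty acids from surplus carbohydrate, and the liver is one of its main sites. Measured here were 10 mouse genes that carry it out or control it, picked by symbol from the 17846 genes listed for each liver: the enzymes Acly, Acaca, Acacb, Fasn, Elovl6, Scd1 and Me1, the transcription factors Srebf1 and Mlxipl, and Thrsp. All 10 were among the 13619 genes with enough reads to be tested. In the pathway, citrate leaves the mitochondrion, is cut to acetyl-CoA, is carboxylated to malonyl-CoA and is built into palmitate with electrons from NADPH, after which elongase and desaturase enzymes turn palmitate into longer and unsaturated fatty acids. Transcription of these genes in hepatocytes is driven mainly by SREBP-1c, the product of Srebf1, which insulin and the sterol-sensing liver X receptor (LXR) raise, and by ChREBP, the product of Mlxipl, which senses glucose. Thrsp, also called Spot 14, is a small protein of lipogenic tissues whose gene responds to thyroid hormone and to carbohydrate feeding.

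Liver mRNA was sequenced from 9 male wild-type C57/BL mice (C57BL/6 in the study's methods), with 3 mice to a group, named Control, NASH and NASH+Exercise. Mice of all 3 groups were 20 weeks old when the treadmill training of the last group began. Control mice ate normal chow and were sedentary. NASH mice ate the Ath diet, an atherogenic diet with added cholesterol and cholate that produces non-alcoholic steatohepatitis, for 20 weeks and were sedentary. NASH+Exercise mice ate the same diet for 20 weeks and ran on a treadmill for the last 8 of them, starting after 12 weeks of diet and at 20 weeks of age, at 12 m/min for 1 hour a day on 5 days a week. All mice were fasted overnight before the liver was taken, so that every level below is that of a fasted liver, and no group carries a genetic change. Because the diet groups differ from Control in everything the Ath diet contains, effects of its single ingredients cannot be told apart.

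Each library held between 20085976 and 22495408 estimated read counts. Read counts brought to a common library total (CPM) and scaled by trimmed mean of M values (TMM) were used to compare a gene between mice, and TPM (transcript abundance scaled to a common total), which correct for transcript length, to compare genes within a mouse. A change was called where edgeR's quasi-likelihood test gave a Benjamini-Hochberg adjusted p under 0.05 and the log2 fold change exceeded 1 in size. Scaling mattered: with library size alone the median over all tested genes moved, as a log2 fold change, from 0.01 to 0.36 in NASH against Control and from -0.03 to -0.23 in NASH+Exercise against NASH, so small changes are read against that median. The 10 macrophage markers summed to between 73.1 and 150.3 TPM in Control, 1169 and 1566 TPM in NASH and 749.9 and 978.5 TPM in NASH+Exercise, while 11 hepatocyte markers summed to between 151664 and 157085, 123892 and 148513, and 116761 and 138208 TPM. In whole liver, fewer hepatocytes and less RNA per hepatocyte cannot be told apart, and the part of the added cells in the changes below was not tested. In NASH against Control 10 of 10 macrophage, 5 of 9 stellate cell, 4 of 7 T and B cell, 5 of 6 neutrophil, 3 of 5 cholangiocyte and 2 of 6 endothelial cell markers rose, and 1 of 11 hepatocyte markers fell. In NASH+Exercise against Control the numbers were 9, 4, 4, 5, 1, 0 and 0 in the same order, and in NASH+Exercise against NASH no marker of any list was called. Of the adipocyte markers, Adipoq and Plin1 were at 0 counts in all NASH and NASH+Exercise livers. In Control they were at no more than 4 counts. Cfd was at no more than 15 counts in any liver. Cidec lay between 39 and 673 counts over all livers, Fabp4 between 48 and 238, and Lipe between 229 and 371. Of these last 3, the ones tested, 1 rose and 1 fell in NASH against Control. In NASH+Exercise against Control 1 fell.

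Sequence before the start sites is shown for 3 genes that the results turn on, Srebf1, Fasn and Thrsp, taken from RefSeq on GRCm38.p6. RefSeq promoter windows were matched for 9 of the 10 genes, in 13 windows, the exception being Scd1. The last 250 bases before the start were searched on both strands. Capitals mark GGTTACT, part of the LXR response element (on the opposite strand AGTAACC), and CCAAT, the box bound by NF-Y (on the opposite strand ATTGG). The first motif was chosen after the sequences had been seen. Srebf1 has 3 windows, and the one shown is the window that holds the LXR motif. Positions count from the start site of the window itself. The Fasn stretch lies inside the gene, whose RefSeq span on chr11 reaches 120825166, so its positions are not distances from that outer end.
Srebf1, chr11:60210472-60210721, minus strand, bases -250 to -1: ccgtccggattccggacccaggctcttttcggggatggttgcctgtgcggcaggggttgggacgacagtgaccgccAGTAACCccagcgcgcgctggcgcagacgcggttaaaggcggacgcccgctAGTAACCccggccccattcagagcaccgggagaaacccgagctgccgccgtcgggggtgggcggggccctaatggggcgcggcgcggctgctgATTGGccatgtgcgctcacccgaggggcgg
Fasn, chr11:120824548-120824797, minus strand, bases -250 to -1: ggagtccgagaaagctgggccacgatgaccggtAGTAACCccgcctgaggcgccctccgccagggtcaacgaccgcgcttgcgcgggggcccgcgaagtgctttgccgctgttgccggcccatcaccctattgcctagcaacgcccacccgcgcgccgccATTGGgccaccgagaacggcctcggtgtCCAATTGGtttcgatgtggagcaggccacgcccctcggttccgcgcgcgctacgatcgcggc
Thrsp, chr7:97417620-97417634, minus strand, bases -84 to -70: ctgggATTGGctcaa
Thrsp, chr7:97417593-97417607, minus strand, bases -57 to -43: ttgctCCAATggttg

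The Srebf1 window carried GGTTACT at positions -174 and -123, and the Fasn window carried it at -217. The motif was found in 1.88% of all 32851 windows, and 2 or more copies in 0.0365%. No other member window held it. CCAAT lay at -90, -62 and -59 in Fasn, where the last 2 matches overlap on opposite strands, and at -79 and -52 in Thrsp, and 10.1% of all windows held 2 or more. The Srebf1 window shown held a single CCAAT, at -30. Only 15 bases around each box are shown for Thrsp because an exon annotated by GENCODE reaches into that stretch. The motif TCACNCCAC, a sterol regulatory element to which SREBP proteins bind, was found in 1.05% of windows and, among the members, in 1 Mlxipl window at -136. CACGTG, the palindromic E-box, was found in 6.02% of windows and, among the members, in the other Mlxipl window at -98. These are matches of letters, and binding was not measured.

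The levels of the 10 genes, per transcript length, spanned a wide range in every group. In Control livers the desaturase Scd1 stood at 1110 ± 196 TPM (SD, n = 3), followed by Mlxipl at 152 ± 52.2 TPM, Me1 at 68.1 ± 10.9 TPM and Acly at 25.5 ± 2.04 TPM. Srebf1 at 18.9 ± 4.04 TPM and Fasn at 15.9 ± 2.01 TPM came next and overlapped each other, and the ranges of Srebf1 and Acly touched. Thrsp, Acaca, Acacb and Elovl6 closed the order, with means between 9.93 and 11.0 TPM that did not differ beyond their spread. In NASH livers Scd1 and Mlxipl kept the first 2 places, Srebf1 took the third with 97.3 ± 6.36 TPM, Me1 dropped to the seventh with 20.5 ± 5.98 TPM and Acacb to the last with 3.63 ± 1.11 TPM. In NASH+Exercise livers Thrsp took the fourth place with a mean of 114 TPM, but its SD of 132 TPM exceeded the mean and its place rests on 1 mouse.

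**Figure D1:**
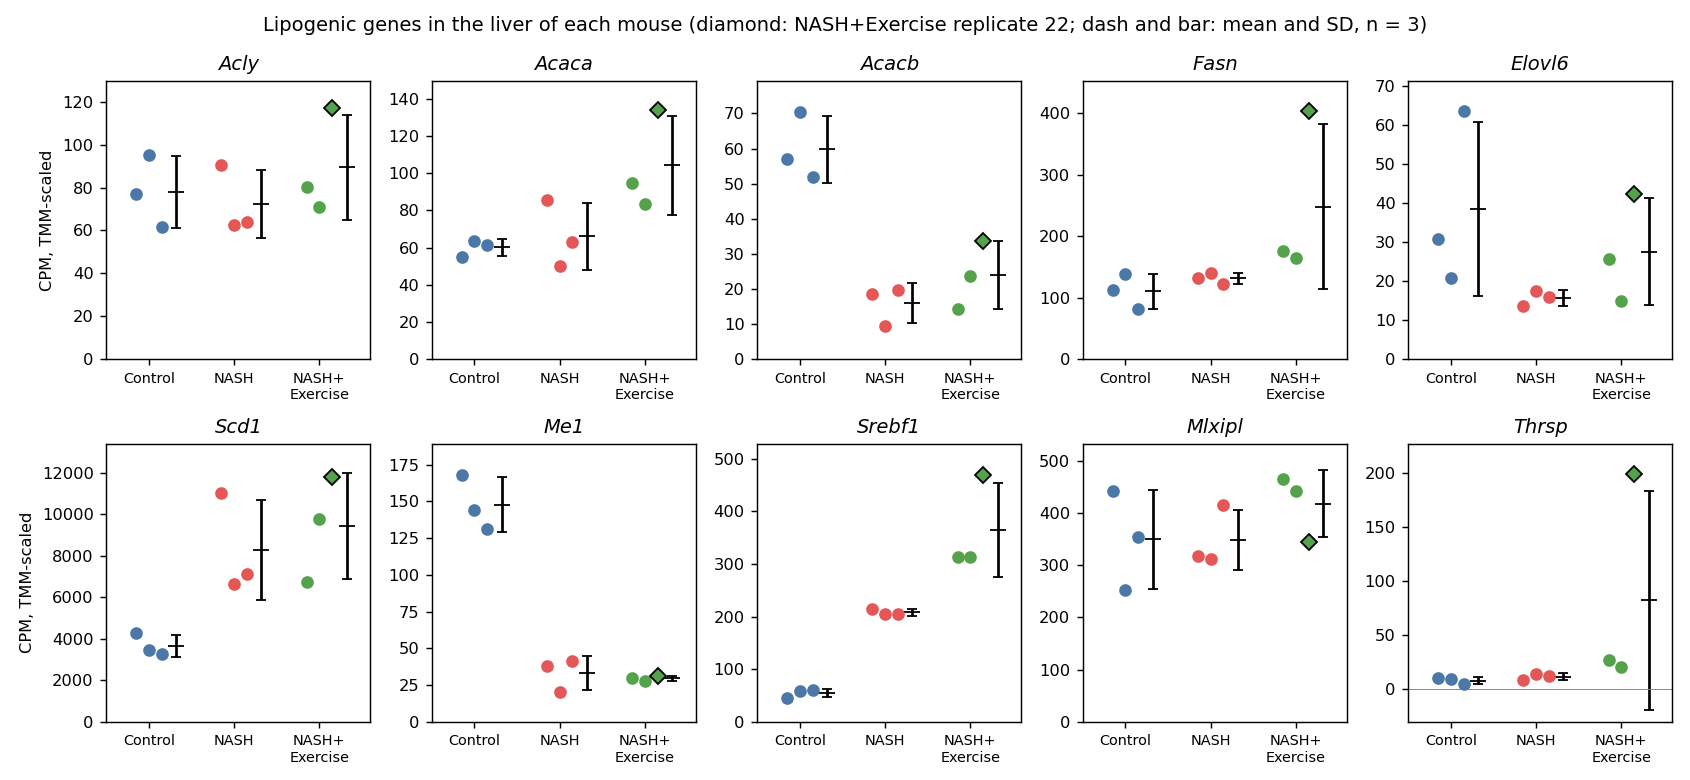
TMM-scaled CPM of the 10 genes in each mouse, by group, on linear axes that include 0 (dash and bar, mean and SD, n = 3 mice; diamond, NASH+Exercise replicate 22). Me1 and Acacb are low and Srebf1 and Scd1 high in all 6 livers on the Ath diet, and Thrsp is near 199 CPM in a single trained mouse against at most 27.3 CPM in the other 8.

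The Ath diet split the pathway. In NASH against Control, 2 members rose (Srebf1 and Scd1) and 3 fell (Me1, Acacb and Elovl6), while Acly, Acaca, Fasn, Mlxipl and Thrsp did not pass the test. Thus 5 of 10 were called, where 18.3% of all tested genes were, a share made of 15.3% that rose and 3.03% that fell. Groups did not overlap in CPM for 5 members, against 49.6% of all genes. In NASH+Exercise against Control, 4 members rose (Srebf1, Scd1, Fasn and Thrsp) and 2 fell (Me1 and Acacb), together 6 of 10 against a background of 13.5%, made of 10.4% higher and 3.07% lower. Groups did not overlap for 7 members, against 38.6% of all genes. In NASH+Exercise against NASH no member was called, where 0.14% of all genes were. The 3 comparisons share mice, so the values below are set side by side and are not independent of each other.

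**Figure D2:**
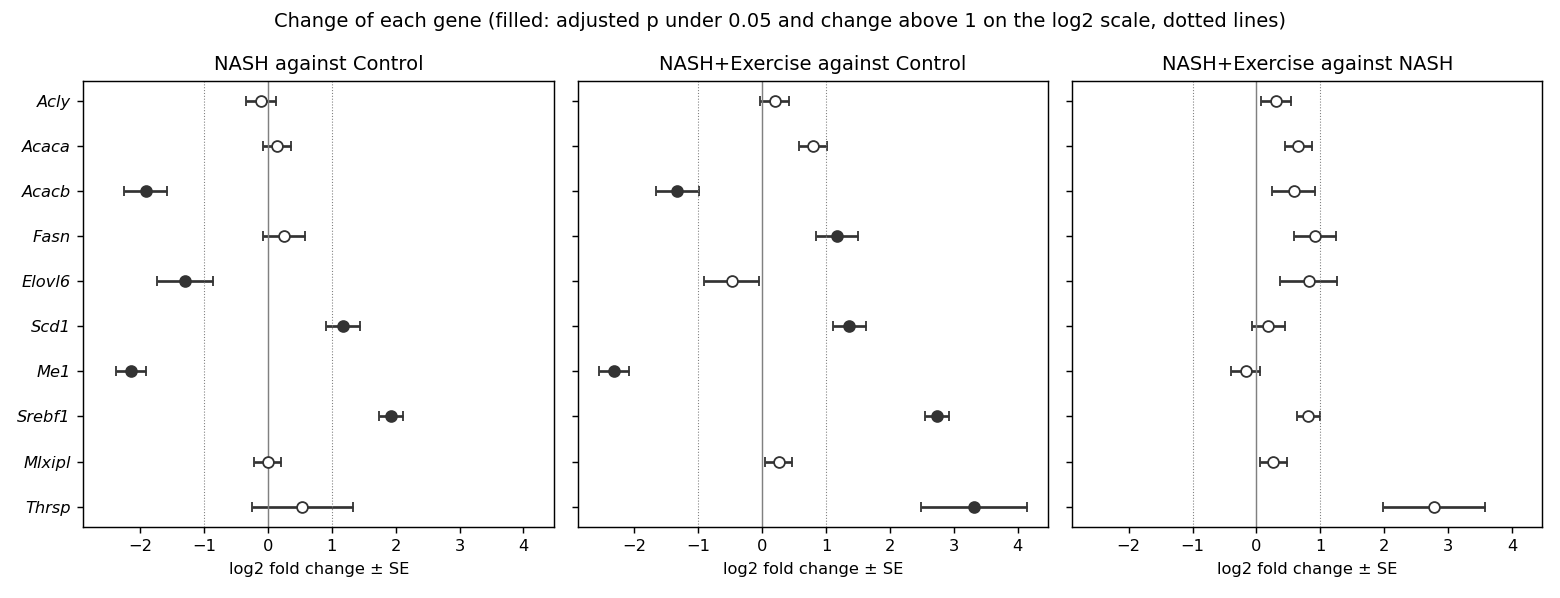
Log2 fold change with its standard error (edgeR, 9 mice) for each gene in the 3 comparisons. Filled points passed both thresholds, and dotted lines mark a log2 fold change of 1 in either direction: 5 points are filled in NASH against Control, 6 in NASH+Exercise against Control and none in NASH+Exercise against NASH.

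Srebf1 (chr11:60199084-60224186), which encodes SREBP-1, rose most steadily. It stood at 44.8, 59.3 and 59.6 CPM in Control, 214.9, 204.7 and 204.1 CPM in NASH, and 312.3, 312.6 and 468.1 CPM in NASH+Exercise. No group overlapped another, and within NASH the 3 mice lay close together. The log2 fold change was 1.93 ± 0.19 (SE) in NASH against Control (adjusted p = 3.41e-05, edgeR), 2.74 ± 0.19 in NASH+Exercise against Control (adjusted p = 1.2e-05), and 0.81 ± 0.18 in NASH+Exercise against NASH, which did not pass (adjusted p = 0.122). DESeq2 gave an adjusted p of 0.000611 for that last difference on the 6 mice and 0.00482 on all 9, with a log2 fold change of 0.86 and 0.83, below the size threshold. The counts are per gene and do not separate the SREBP-1a and SREBP-1c transcripts, which start at different promoters. The window printed above lies inside the gene, downstream of the other Srebf1 windows.

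Mlxipl (chr5:135089890-135139768), which encodes ChREBP, did not pass the test in any comparison. It stood at 442.8, 251.9 and 354.0 CPM in Control, 318.3, 311.5 and 414.8 CPM in NASH, and 465.5, 443.0 and 345.4 CPM in NASH+Exercise. The 3 groups overlapped, and the log2 fold changes were -0.01 ± 0.21, 0.26 ± 0.21 and 0.26 ± 0.21 in NASH against Control, NASH+Exercise against NASH and NASH+Exercise against Control, with edgeR adjusted p of 0.988, 0.596 and 0.428. Its transcripts of alternative start sites were not separated either.

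The genes that supply carbon and reducing power parted. Acly (chr11:100476352-100528000), ATP citrate lyase, which releases cytosolic acetyl-CoA from citrate, stood at 76.9, 95.4 and 61.7 CPM in Control, 90.4, 62.5 and 64.0 CPM in NASH, and 80.3, 70.8 and 117 CPM in NASH+Exercise. The groups overlapped in each comparison and no test passed (edgeR log2 fold changes of -0.11, 0.31 and 0.20, adjusted p of 0.752, 0.556 and 0.587, in the order used for Mlxipl). Me1 (chr9:86581363-86695914), the cytosolic malic enzyme that makes NADPH, stood at 167.9, 144.1 and 131.2 CPM in Control, 38.2, 20.3 and 41.7 CPM in NASH, and 30.1, 27.9 and 31.0 CPM in NASH+Exercise. Every liver on the Ath diet lay below every Control liver. The log2 fold change was -2.15 ± 0.23 in NASH (a 4.43-fold lower level, adjusted p = 8.25e-05) and -2.32 ± 0.24 in NASH+Exercise (4.98-fold lower, adjusted p = 9.87e-05), each against Control by edgeR. Between the diet groups it was -0.17 ± 0.23 (adjusted p = 0.775).

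The acetyl-CoA carboxylases, which make malonyl-CoA, also parted. Acaca (chr11:84129635-84401651) encodes ACC1, the cytosolic form that feeds synthesis, and Acacb (chr5:114146321-114250761) encodes ACC2, the form at the mitochondrial surface whose malonyl-CoA restrains entry of fatty acids for oxidation. Acacb stood at 57.1, 70.3 and 51.9 CPM in Control, 18.6, 9.35 and 19.7 CPM in NASH, and 14.2, 23.7 and 33.6 CPM in NASH+Exercise. All 6 livers on the diet lay below the Control range. The log2 fold change was -1.91 ± 0.34 in NASH (adjusted p = 0.00209) and -1.33 ± 0.33 in NASH+Exercise (adjusted p = 0.0171), each against Control by edgeR. The second call was lost without Control replicate 4 (adjusted p = 0.0644) and without NASH+Exercise replicate 18 (adjusted p = 0.0524). Acaca stood at 55.1, 63.6 and 61.6 CPM in Control, 85.7, 50.0 and 62.9 CPM in NASH, and 94.8, 83.5 and 134 CPM in NASH+Exercise. The trained mice lay above the Control mice without overlap, with a log2 fold change of 0.79 ± 0.22 (edgeR adjusted p = 0.0217) that was below the size threshold, while NASH overlapped both other groups.

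Fasn (chr11:120805958-120825166), fatty acid synthase, which assembles palmitate, stood at 111.6, 138.1 and 81.6 CPM in Control, 131.4, 140.9 and 121.8 CPM in NASH, and 176.5, 165.3 and 403.1 CPM in NASH+Exercise. The trained mice lay above all others, and 1 of them lay far above its group. The edgeR log2 fold change was 0.25 ± 0.33 in NASH against Control (adjusted p = 0.592), 1.17 ± 0.33 in NASH+Exercise against Control (adjusted p = 0.0272) and 0.92 ± 0.33 in NASH+Exercise against NASH (adjusted p = 0.242). Without NASH+Exercise replicate 22 the last 2 were 0.63, no longer past the size threshold, and 0.38. The call against Control was also lost without Control replicate 3 (adjusted p = 0.08) and without Control replicate 29 (adjusted p = 0.0971). In all, 14 of 18 alternatives kept this call and 4 lost it.

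The enzymes that act on palmitate moved in opposite directions. Elovl6 (chr3:129532386-129638495), which lengthens palmitate, stood at 30.8, 20.8 and 63.4 CPM in Control, 13.5, 17.5 and 15.9 CPM in NASH, and 25.6, 14.8 and 42.2 CPM in NASH+Exercise. Control and NASH did not overlap, but Control replicate 29 was far above the other Control mice. The call in NASH against Control, a log2 fold change of -1.30 ± 0.44 with an edgeR adjusted p of 0.0466, was the weakest of all: without Control replicate 29 it was -0.76 (adjusted p = 0.15), and leaving out any single NASH mouse, Control replicate 3 or NASH+Exercise replicate 8 also took the adjusted p above 0.05. It was lost too with library size alone (-0.99, adjusted p = 0.127), with no filter on low counts (adjusted p = 0.0822) and in the 3 limma fits on TPM (adjusted p from 0.25 to 0.302), so that 7 of 18 alternatives kept it. Against Control the trained mice gave -0.48 ± 0.43 (adjusted p = 0.475). Scd1 (chr19:44394450-44407709), the liver's main stearoyl-CoA desaturase, which makes oleate and palmitoleate, stood at 4258, 3484 and 3252 CPM in Control, 11039, 6663 and 7133 CPM in NASH, and 6740, 9778 and 11785 CPM in NASH+Exercise. The lowest liver on the diet held 6663 CPM and the highest Control liver 4258 CPM. The log2 fold change was 1.18 ± 0.26 in NASH (adjusted p = 0.00551) and 1.36 ± 0.26 in NASH+Exercise (adjusted p = 0.0034), each against Control by edgeR. Without NASH replicate 5 the first was 0.91 and fell below the size threshold. Scd1 and its near copies could share reads, which RSEM divides by estimate, so the split between them is uncertain.

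Thrsp (chr7:97412933-97417550) stood at 10.1, 9.95 and 4.69 CPM in Control, 9.02, 14.7 and 12.2 CPM in NASH, and 27.3, 20.6 and 199 CPM in NASH+Exercise. Control and NASH overlapped, and the lowest trained mouse lay above the highest of the other 6. The edgeR log2 fold change was 0.54 ± 0.79 in NASH against Control (adjusted p = 0.641), 3.32 ± 0.83 in NASH+Exercise against Control (adjusted p = 0.0168) and 2.78 ± 0.80 in NASH+Exercise against NASH (adjusted p = 0.177). The size of the last 2 rests on NASH+Exercise replicate 22: without it they were 1.54 (adjusted p = 0.0087) and 1.003 (adjusted p = 0.387). Because the groups share the estimate of spread, the standard error in NASH against Control also holds the spread of the trained mice. The call against Control was lost without each of Control replicates 3, 4 and 29 in turn (adjusted p of 0.0518, 0.0724 and 0.0757), and DESeq2 gave Thrsp no adjusted p on the 6 mice. Apart from that DESeq2 fit, 13 of 18 alternatives kept this call and 4 lost it. Thrsp ranged from 92 to 4083 counts per liver, and that lowest count was the smallest of any member in any liver.

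Between trained and sedentary mice on the Ath diet, 9 of 10 members had a log2 fold change above 0, Me1 being the exception, where 45.1% of all genes did. The median over the members was 0.62, and over all genes -0.03. Groups did not overlap for 3 members, Srebf1, Fasn and Thrsp, a share of the members near the 24.1% of all genes, and 4 members had an unadjusted edgeR p under 0.05, where 15.3% of all genes did, none of the 4 being called. Other lists leaned the same way or the opposite way in these livers: 9 of 11 hepatocyte markers (median 0.25) and 19 of 22 cholesterol synthesis genes (median 0.41) lay above 0, and 9 of 10 macrophage and 7 of 9 stellate cell markers lay below it, and their part in the members' values was not tested. The sign is fragile for the genes that moved least: 6 of 10 lay above 0 on the TPM scale, where Acly, Scd1 and Mlxipl turned slightly negative, although 9 of 10 then lay above the median of all genes. Without NASH+Exercise replicate 22, 8 of 10 lay above 0.

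The trained mice were not alike. NASH+Exercise replicate 22 held the highest value of its group in 9 of 10 members, all but Mlxipl, where it held the lowest, whereas it was the highest of the 3 in 35.5% of all genes. Its Thrsp level was 8.32 times the mean of the other trained mice, and among 12249 genes with a mean of at least 1 CPM only 6 had a larger ratio. The corresponding ratio was 2.36 for Fasn, 2.09 for Elovl6, 1.77 for Acacb, 1.498 for Srebf1 and 1.07 for Me1. Genes outside the 10, named after their values had been seen, also set this mouse apart from the other trained mice. Lpin1, a phosphatidate phosphatase, stood at 403.4 CPM in it and at 30.6 and 42.5 CPM in the other trained mice. The NASH mice, at 104.7, 48.4 and 131.1 CPM, lay between. Pck1, the gluconeogenic enzyme that fasting raises, stood at 2095 CPM in replicate 22 and at 855.1 and 600.4 CPM in the other trained mice. Replicate 22 thus lay within the range of the NASH mice (2105, 1012 and 2431 CPM), and the other trained mice lay below that range. Cyp4a14, a fasting and PPARα target, was at 5.80 CPM in replicate 22 against a mean of 26.7 CPM in the other trained mice. The part of these genes' state in the Thrsp and Fasn values of this mouse was not tested.

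**Figure D3:**
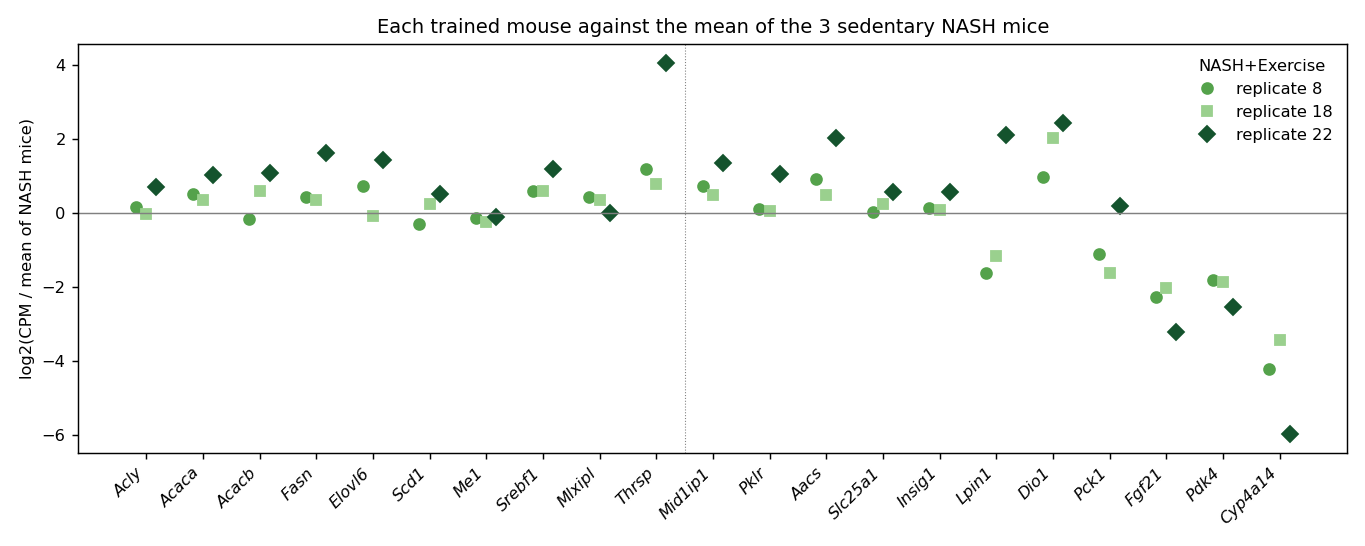
Log2 ratio of the CPM of each NASH+Exercise mouse to the mean CPM of the 3 NASH mice, for the 10 genes (left of the dotted line) and for 11 others. Replicate 22 (dark diamonds) lies above replicates 8 and 18 for most lipogenic genes, most of all for Thrsp, and for Lpin1 and Pck1, and below them for Fgf21, Pdk4 and Cyp4a14.

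Ratios of 2 genes within a liver do not depend on how libraries are scaled. The pairs were chosen after the values had been seen, so the ratios are a description. Acaca and Acacb were about equal in TPM in Control (ratios of 0.941, 0.894 and 1.18), whereas Acaca exceeded Acacb by 3.12 to 5.20 times in NASH and by 3.44 to 6.55 times in NASH+Exercise. Me1 exceeded G6pdx, the glucose-6-phosphate dehydrogenase that opens another cytosolic route to NADPH, by 20.8 to 33.0 times in Control, by 1.03 to 2.04 times in NASH and by 1.70 to 2.17 times in NASH+Exercise. Srebf1 exceeded Srebf2, which encodes the SREBP that mainly drives cholesterol synthesis, by 1.16 to 1.96 times in Control, 8.11 to 9.34 times in NASH and 12.1 to 16.5 times in NASH+Exercise. In these 3 ratios no liver on the diet overlapped Control, and for Srebf1 over Srebf2 the diet groups did not overlap either. Scd1 over Fasn ranged from 52.0 to 82.2 in Control, from 97.6 to 173 in NASH and from 60.3 to 122 in NASH+Exercise, where trained mice overlapped both groups.

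**Figure D4:**
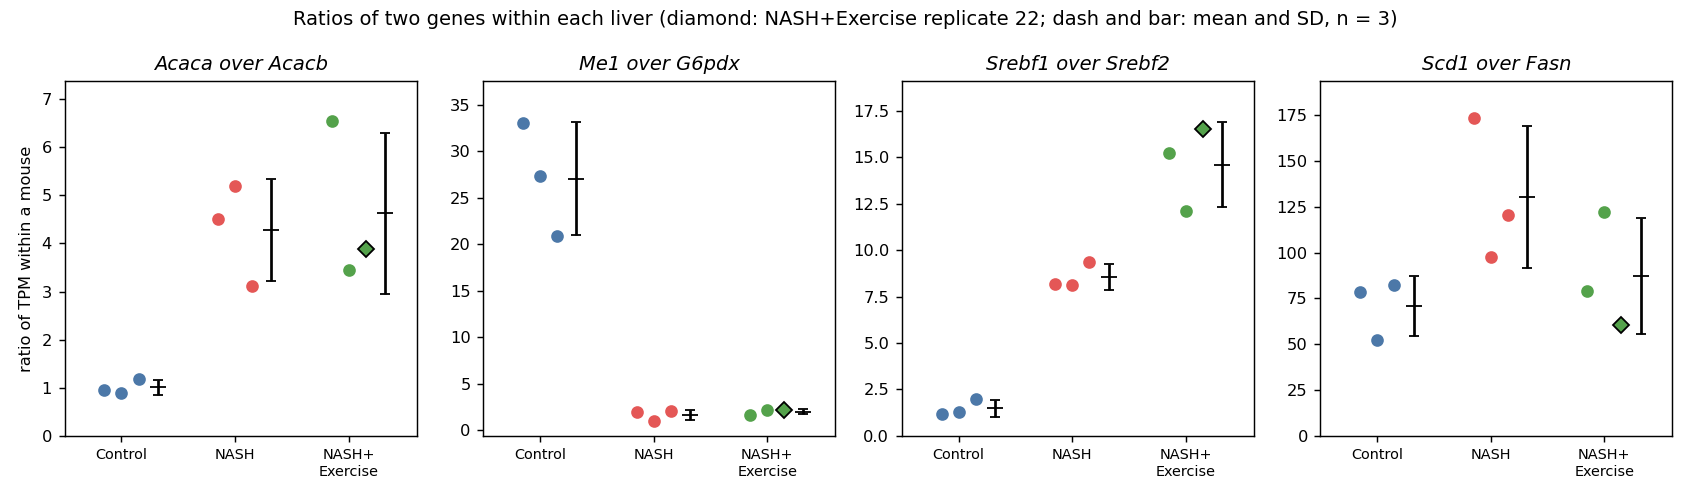
Ratio of the TPM of 2 genes within each liver, by group, on linear axes that include 0 (dash and bar, mean and SD, n = 3; diamond, NASH+Exercise replicate 22). Acaca over Acacb and Srebf1 over Srebf2 are higher and Me1 over G6pdx lower in every liver on the Ath diet than in every Control liver.

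Around the pathway, genes that supply citrate and NADPH other than Acly and Me1 did not follow Me1. Of 14, 3 rose and none fell in NASH against Control, and the list's median log2 fold change was -0.04. Over all tested genes 15.3% rose and 3.03% fell in NASH against Control, and 10.4% and 3.07% in NASH+Exercise against Control. The counts of this and the following lists are to be read beside those shares. G6pdx rose by 1.84 ± 0.16 on the log2 scale (adjusted p = 1.83e-05), Pgd, the next dehydrogenase of that route, by 1.05 ± 0.13 (adjusted p = 0.000172), and Me2, the mitochondrial malic enzyme, by 1.79 ± 0.29 (adjusted p = 0.000917), all by edgeR. In NASH+Exercise against Control 3 also rose, G6pdx, Me2 and Aacs, the cytosolic acetoacetyl-CoA synthetase, the last by 2.14 ± 0.47 (adjusted p = 0.009). Slc25a1, which exports citrate, had log2 fold changes of -0.57 (adjusted p = 0.0397, below the size threshold) in NASH and -0.28 (adjusted p = 0.321) in NASH+Exercise, each against Control.

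Of 15 genes of SREBP processing and LXR, 4 rose and none fell in NASH against Control, and 3 rose and 1 fell in NASH+Exercise against Control. The largest were the sterol exporters that LXR induces: Abcg1 by 3.49 ± 0.20, Abcg5 by 2.12 ± 0.17 and Abcg8 by 1.77 ± 0.21 on the log2 scale in NASH (adjusted p of 3.79e-06, 1.43e-05 and 0.000124, edgeR). Macrophages also express Abcg1, and their markers rose in the same livers. Srebf2 was lower by less than the size threshold, with -0.66 ± 0.17 in NASH against Control (adjusted p = 0.0132). Insig1, a brake on SREBP processing that SREBP itself induces, had log2 fold changes of -0.13 (adjusted p = 0.733) and 0.14 (adjusted p = 0.751) in NASH and in NASH+Exercise against Control. Insig2, which fasting raises and which was named after its values had been seen, fell by 1.10 on the log2 scale in NASH+Exercise against Control (adjusted p = 0.0166). Of 22 cholesterol synthesis genes, which SREBP proteins also drive, none rose and 8 fell in NASH against Control, led by Idi1 with -2.74 ± 0.37, Sqle with -2.25 ± 0.23 and Tm7sf2 with -2.21 ± 0.22, and 7 fell in NASH+Exercise against Control.

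Of 14 ChREBP partner and glycolytic genes, none rose and 5 fell in NASH against Control. They were led by Fgf21, a fasting and glucose-responsive hormone, with -2.17 ± 0.26, G6pc, the last step of glucose output, with -2.003 ± 0.45, and Txnip with -1.72 ± 0.22, with smaller changes in the rest. The same list had 5 genes that fell in NASH+Exercise against Control. Mlx, the partner of ChREBP, had a log2 fold change of -0.07 (adjusted p = 0.709) in NASH and 0.29 (adjusted p = 0.107) in NASH+Exercise against Control. Pklr, liver pyruvate kinase and a ChREBP target, had 0.03 (adjusted p = 0.949) and 0.51 (adjusted p = 0.268). Fgf21 was the only gene of any of the 8 lists called in NASH+Exercise against NASH, with -2.42 ± 0.29 (adjusted p = 0.0405), a call that was lost without Control replicate 3, NASH replicate 5 or 20, or NASH+Exercise replicate 18 or 22.

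Mid1ip1 encodes the paralog of Thrsp and forms complexes with it that act on ACC1. It stood at 12.0, 13.8 and 9.49 CPM in Control, 20.5, 25.7 and 21.6 CPM in NASH, and 37.2, 31.6 and 57.2 CPM in NASH+Exercise. No group overlapped another. Against SDs for Thrsp of 3.09, 2.83 and 101 CPM in Control, NASH and NASH+Exercise, those of Mid1ip1 were 2.16, 2.72 and 13.5 CPM. The log2 fold change was 0.94 ± 0.22 in NASH against Control (adjusted p = 0.00813, just below the size threshold), 1.84 ± 0.23 in NASH+Exercise against Control (adjusted p = 0.000265) and 0.89 ± 0.22 in NASH+Exercise against NASH (adjusted p = 0.131), by edgeR. Of the 17 genes of its list, which adds AMPK subunits and thyroid hormone receptors and targets, it was the only one called, in NASH+Exercise against Control. Dio1, the deiodinase that thyroid hormone induces, named after its values had been seen, had a log2 fold change of 1.92 ± 0.43 between trained and sedentary diet groups (adjusted p = 0.128).

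Of 27 tested genes of desaturation, elongation and triglyceride synthesis, 2 rose and 4 fell in NASH against Control, where 18.3% of all tested genes were called. Most of the list was lower by less than the size threshold: 20 genes lay below 0 and 7 above it. The median was -0.69, against 0.01 over all genes, and 20 had an edgeR adjusted p under 0.05. Scd2, a desaturase close in sequence to Scd1, stood at 2.74, 2.22 and 2.70 CPM in Control, 22.2, 35.6 and 23.7 CPM in NASH, and 19.1, 15.7 and 15.9 CPM in NASH+Exercise. By edgeR it changed by 3.41 ± 0.21 on the log2 scale in NASH (adjusted p = 4.55e-06) and 2.72 ± 0.21 in NASH+Exercise (adjusted p = 1.93e-05), each against Control, and the diet groups gave -0.69 ± 0.18 between them (adjusted p = 0.151). The genes that fell in NASH were Mogat1 with -3.14 ± 0.78, Elovl3 with -2.82 ± 0.81, Acsl1, which activates long-chain fatty acids, with -2.45 ± 0.23, and Elovl5, an elongase of polyunsaturated fatty acids, with -1.26 ± 0.30. Elovl5 and Pnpla3, the other gene that rose, with 1.27 ± 0.33 (adjusted p = 0.0124), were named after their values had been seen. In NASH+Exercise against Control 2 rose and 4 fell, with 19 below 0, 8 above it and a median of -0.47. Of 14 insulin signalling genes none was called in NASH against Control (2 had an adjusted p under 0.05), and Irs2 fell with -1.78 ± 0.53 (adjusted p = 0.0346) in NASH+Exercise against Control. Of 14 genes of the fasting response, none rose and 9 fell in NASH and 11 fell in NASH+Exercise, each against Control. The list's medians were -1.18 and -1.76, and Cyp4a14 with -4.09 ± 0.84 and -8.30 ± 1.03, Pdk4, which spares glucose from oxidation, with -4.49 ± 0.51 and -6.52 ± 0.58, and Acot1 with -3.73 ± 0.42 and -4.78 ± 0.45 led it.

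**Figure D5:**
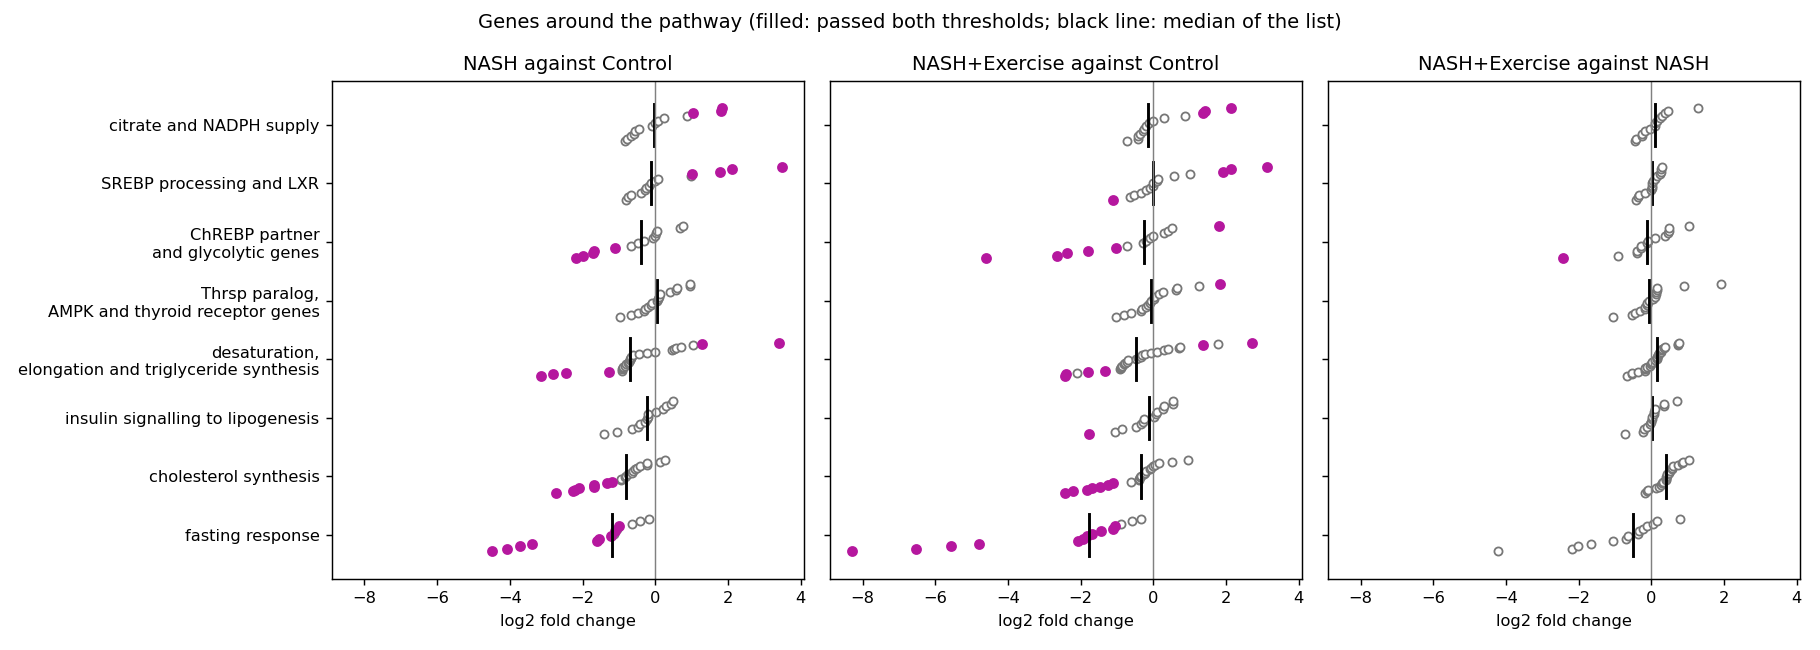
Log2 fold change of every tested gene in 8 lists around the pathway, in the 3 comparisons (filled points passed both thresholds, black lines are list medians). Fasting response and cholesterol synthesis genes lie mostly below 0 against Control, the highest points against Control are Abcg1 in NASH and in NASH+Exercise, and a single point, Fgf21, is filled in NASH+Exercise against NASH.

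The genes whose pattern over the 9 mice was most like that of Thrsp, by Pearson's r of log2 CPM among 12249 genes, were Kyat1 (0.965), Rabl6 (0.946), Hs6st1 (0.943), Slc9a3r1 (0.942) and Dnaja4 (0.936). For Fasn they were Rabl6 (0.965), Slc9a3r1 (0.956), Dnph1 (0.953), Pde4dip (0.949) and Coq7 (0.944). Rabl6 and Slc9a3r1 stood in both lists. Mid1ip1 was the 24th for Thrsp and the 40th for Fasn. The 9 points come from 3 groups and share NASH+Exercise replicate 22, so these values describe likeness only.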

How the data were processed

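Liver mRNA-seq of 9 mice was analysed from per-gene tables. The authors deposited estimated counts per gene, which RSEM makes by dividing reads among transcripts, with FPKM, which were not used, and TPM. The submitters' processing notes name HISAT2 2.1.0, Bowtie2 2.2.5, RSEM 1.2.8 and GRCm38.p6, without their order. The authors' TPM values are scaled to the whole library, so a few very abundant transcripts shift all others. One table repeats the values of all 9 mice, and 0 of 285536 repeated values differed. Of 17846 Entrez identifiers, 17728 had a RefSeq symbol.

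Estimated counts were rounded. Genes were kept by filterByExpr (minimum count 10), scaled by TMM (factors 0.80 to 1.23) and tested with edgeR 4.0.16 (quasi-likelihood, robust, all 9 mice, group as the only term, R 4.3.3), with Benjamini-Hochberg adjustment over 13619 genes and the study's thresholds (adjusted p 0.05, log2 fold change 1). Alternatives were other scalings, no filter, 6 mice, DESeq2 1.42.0, limma 3.58.1 on log2(TPM + 1) or log2(TPM + 0.1), and leaving out each mouse. p-values measure the spread between mice within groups, with 3 mice per group. In the edgeR fit of all 9 mice the groups share the estimate of spread of a gene, with 6 residual degrees of freedom. A wide spread in a group therefore also widens the error of the comparison that leaves this group out.

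The 10 genes, the lists around them and the markers were chosen with earlier results of these data known. Named beside the 10 were at most 3 called genes per list and comparison with the largest change, and Mid1ip1, Scd2, Insig1, Slc25a1, Mlx and Pklr; exceptions are stated, and other genes that this rule names are not reported here. Macrophage, stellate cell, T and B cell, neutrophil, cholangiocyte, endothelial cell, hepatocyte and adipocyte markers were summed.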

Additional observations from a re-analysis of the deposited data

How the results depend on the processing

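Over 18 alternatives for each of the 11 called changes (198 values), 175 kept the call, 22 lost it, 1 (Thrsp, NASH+Exercise against Control, DESeq2 on 6 mice) had no adjusted p and 0 changed sign. Srebf1 and Me1 kept every call, as did Scd1 against Control in the trained mice and Acacb in NASH. Called members ranged from 3 to 5 in NASH against Control (3 without NASH replicate 5), from 4 to 6 in NASH+Exercise against Control, and were 0 throughout in NASH+Exercise against NASH, where 2078 genes had an unadjusted edgeR p under 0.05 and DESeq2 called 204 genes on the 6 mice and 171 on all 9 against 19 by edgeR. There, 14 of edgeR's 19 calls and 23 of 77 calls of limma on log2(TPM + 1) were higher in trained mice.

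Changes of sign occurred for 27 log2 fold changes of members, none of them called. In NASH against Control, Acly turned to 0.25 with library size alone and 0.32 or 0.33 on the TPM scales, and Mlxipl to 0.32 and to 0.44 or 0.45. In NASH+Exercise against NASH, Scd1 turned to -0.0253 with library size and -0.11 on the TPM scales, where Acly was -0.00795 or -0.00827 and Mlxipl -0.0349 or -0.0352. Leaving out single mice gave ranges that cross 0 for Acly (-0.304 to 0.0472), Acaca (-0.0936 to 0.274) and Mlxipl (-0.210 to 0.196) in NASH against Control, for Scd1 (-0.000572 to 0.454) and Me1 (-0.408 to 0.0233) in NASH+Exercise against NASH, and for Acly (-0.0468 to 0.389) and Elovl6 (-0.926 to 0.0774) in NASH+Exercise against Control. The cause was not tested, except that library size and TPM moved the median of all genes. Of 360 counts of called genes in lists, 32 moved by more than 1.5 times, all between counts of 0 and 3. No paired analysis was possible because the groups share no replicate numbers.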
